A study of Mus musculus with 15 samples.

Results

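The question was whether transferred adult T cells changed gene expression differently in infarcted hearts of newborn and of adult mice. For each gene this is a difference of effects: the log2 fold change of recipients over controls in neonatal hearts minus the same log2 fold change in adult hearts. A positive difference means that T cells moved a gene higher in neonates than in adults, and a negative one the reverse. All 15 of 15 libraries entered the comparison, and 16437 of the 39331 genes in the table were measured well enough to be tested. All mice were C57BL/6 and all had experimental myocardial infarction. Left ventricular RNA came from neonatal hearts given adult T cells (neonatal recipients, 4 libraries, numbered 1, 2, 4 and 5) and from neonatal hearts left without transfer (neonatal controls, 4 libraries, numbered 6 to 9). Adult hearts given adult T cells (adult recipients) gave 4 libraries, numbered 1 to 4, and adult hearts without transfer (adult controls) gave 3, numbered 5 to 7. The protocol places collection at 36 h but speaks of neonatal hearts alone. Neither the time in adults, the ages in days, the T cell subset nor the number of cells is stated. Nothing says that the libraries came from separate animals, so p-values measure the spread between these libraries, which may be partly technical.

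Newborn mice can rebuild heart muscle after infarction for a short period after birth, whereas the adult heart heals by scar. The damaged muscle draws in neutrophils, then monocytes and macrophages, which clear debris and direct repair, and T cells act on these cells through cytokines such as interferon gamma. Heart muscle cells meanwhile shift between fatty acid oxidation, carried out in mitochondria, and glycolysis as they mature or come under stress.

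Total counts were 21871617 to 34302786 per library, so 3 counts, taken as the limit of detection, correspond to 0.0875 to 0.137 CPM, the unit used below, in which counts are scaled to a common library total. Ventricular muscle markers summed to 29790 CPM or more in every library, and markers of lung, thymus and liver to at most 1.36 CPM. Summed T cell markers were low throughout, at 2.12 to 7.89 CPM. Macrophage markers summed to 254 to 353 CPM in neonatal recipients and 93.9 to 325 CPM in neonatal controls, against 63.8 to 95.6 CPM in adult hearts. Neonatal control 8 was the low one. Atrial markers reached 3326 CPM in adult recipient 4, against 199.7 to 1045 CPM in adult controls. Within that sum Nppa had 90816 counts in recipient 4 and Myl7 247. Myl7 was instead highest in adult recipient 2, at 35.5 CPM, against 9.28 CPM in recipient 4 and 1.0 to 3.2 CPM in adult controls. Lists whose medians move by over 1.5 times or change sign without neonatal control 8 or adult recipient 4 are given with that value. The part of macrophages or atrial cells in the results was not tested. Because these are whole ventricles, fewer cells of a type and less RNA per cell cannot be told apart.

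No single gene passed the test of the difference. With edgeR's quasi-likelihood test and Benjamini-Hochberg adjustment, 0 of 16437 genes (0%) were called, and the smallest adjusted p was 0.182. At an unadjusted p under 0.05 stood 2511 genes (15.3%), of which 1363 (8.29%) had a positive and 1148 (6.98%) a negative difference. DESeq2 called 174 genes for the same contrast, 77 positive and 97 negative. That number ran from 6 without adult control 6 to 868 without neonatal control 9, and 8287 genes had no adjusted p there. The median standard error of a difference was 0.169 on the log2 scale, against a median absolute difference of 0.20.

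Most of the spread in the difference came from the adult side. The effect on a gene had a median absolute log2 size of 0.19 in adults and 0.08 in neonates, and 2329 of the 2511 genes had the larger effect in adults. In adults alone 1406 genes (8.55%) passed, 580 of them (3.53%) higher and 826 (5.03%) lower in recipients, whereas in neonates 0 passed by edgeR, with 513 genes (3.12%) at an unadjusted p under 0.05. The number of adult calls depended on single libraries and on the tool. In edgeR it was 0 without adult recipient 4, without adult control 5 or without adult control 6, and 464 without adult recipient 2. DESeq2 called 2324 adult genes, and 1151, 1210 and 849 without the first 3 of these libraries. Without neonatal control 6, 9 neonatal genes passed. Of the 1406 adult genes, 876 had the same sign in neonates and 530 the opposite one. Of all tested genes 7355 (44.7%) had opposite signs. Over all tested genes the effects at both ages, which share no library, had a Spearman correlation of 0.132 across genes, and leaving out a library moved it between −0.05 and 0.28.

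**Figure D1:**
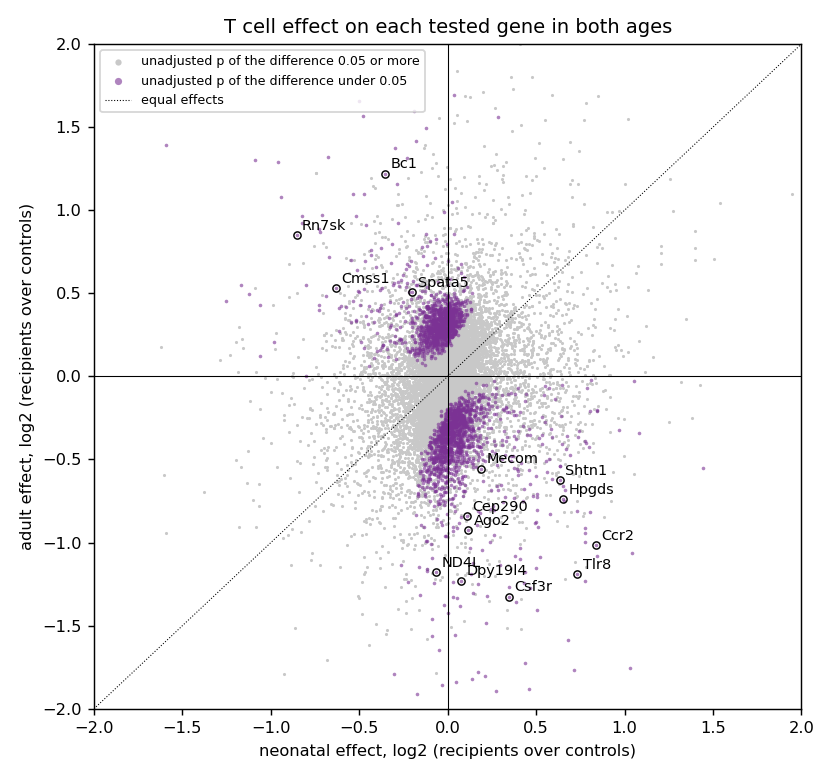
Each point is a tested gene, with its log2 effect of T cells in neonatal hearts on the horizontal axis and in adult hearts on the vertical axis. Purple points are the 2511 genes at an unadjusted p under 0.05 for the difference, the dotted line marks equal effects, and 37 genes lie outside the axes. The purple cloud is stretched along the adult axis and stays near 0 on the neonatal one.

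The genes that head the positive side, with longest transcripts of 3974 to 11237 nucleotides, had lower values in adult recipients than in adult controls. Their neonatal effects ran from −0.03 in Zfc3h1 to 0.63 in Shtn1, which in Shtn1 and Rassf4 equalled the adult effect in size. None of them passed the test of the difference (edgeR adjusted p = 0.182 for each of the 10 named by smallest p). Mecom, on chromosome 3 at 29951296 to 30509759 of GRCm38.p6, encodes a zinc-finger transcription factor of blood stem cells and endothelium. It measured 28.4, 26.4, 22.8 and 21.6 CPM in neonatal recipients and 22.6, 21.0, 19.5 and 24.3 CPM in neonatal controls. In adults it measured 16.03, 20.3, 19.1 and 18.2 CPM in recipients and 28.8, 26.9 and 25.4 CPM in controls. The adult groups did not overlap and the neonatal groups did. Its effect was 0.19 ± 0.10 (SE) in neonates and −0.56 ± 0.11 in adults, a difference of 0.74 ± 0.15.

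Rassf4, of the Ras-association domain family, had effects of nearly equal size and opposite sign. Its levels were 19.2 to 22.99 CPM in neonatal recipients and 14.0 to 20.2 CPM in neonatal controls, then 10.4 to 12.7 CPM in adult recipients and 14.8 to 15.6 CPM in adult controls. Only neonatal control 6 reached into the range of its recipients. The log2 effects were 0.39 ± 0.11 and −0.38 ± 0.12, which differ by 0.76 ± 0.16. Dpy19l4 had the largest difference of the 10, 1.30 ± 0.29. Its adult recipients stood at 2.89 to 4.01 CPM and its adult controls at 6.57 to 11.0 CPM, while the neonatal groups covered each other at 8.30 to 13.4 and 8.25 to 13.8 CPM.

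Cep290, a protein of the base of the cilium, measured 2.63 to 3.19 CPM in adult recipients and 4.40 to 6.28 CPM in adult controls, and its difference was 0.95 ± 0.20. Zfc3h1, which feeds nuclear RNA to the exosome, differed by 0.59 ± 0.13, with adult recipients at 18.0 to 20.5 CPM and adult controls at 26.5 to 31.7 CPM. Shtn1, known from axon outgrowth, differed by 1.26 ± 0.28. The other 4 were Atl3, a GTPase that shapes the endoplasmic reticulum (0.62), Kctd12, a subunit of GABA receptors (0.59), Usp12, a deubiquitinase (0.53), and the endosomal lipid kinase Pikfyve (0.72). In every one of the 10, picked by smallest p of the difference, the adult libraries of both groups were fully separated. In none were the neonatal ones. Over all tested genes the adult groups were separated in 25.1% and the neonatal ones in 1.36%. Of the 10, Mecom, Kctd12, Usp12, Atl3 and Zfc3h1 passed in DESeq2, at adjusted p from 0.0163 to 0.0298, and the other 5 had no adjusted p there.

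On the negative side the leading genes had higher values in adult recipients, and 7 of the 10 had longest transcripts of only 773 to 1272 nucleotides. Spata5, an ATPase of ribosome maturation on chromosome 3 at 37419903 to 37579096, had the smallest p of all genes tested (edgeR adjusted p = 0.182). Adult recipients measured 40.1, 36.5, 35.6 and 42.1 CPM and adult controls 23.8, 26.7 and 31.0 CPM. Neonatal recipients measured 19.0, 19.4, 21.8 and 18.0 CPM and neonatal controls 21.6, 25.2, 21.3 and 21.7 CPM, so that only recipient 4 reached into the controls. The log2 effect was −0.20 ± 0.09 in neonates and 0.51 ± 0.10 in adults, and the difference −0.71 ± 0.14. It passed in DESeq2 (adjusted p = 0.0081) and was the only gene that passed with limma voom and quality weights (adjusted p = 0.0404).

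Several of these genes serve muscle structure and mitochondria. Tcap, the cap protein of titin at the sarcomere's Z-disc, measured 309 to 347 CPM in adult recipients and 255 to 261 CPM in adult controls, but 111 to 125 and 113 to 150 CPM in the neonatal groups. Its difference was −0.49 ± 0.12. Hspb2, a small heat shock protein of muscle, differed by −0.47 ± 0.10, with 92.7 to 98.5 CPM in adult recipients against 71.3 to 75.1 CPM in adult controls and overlapping neonatal groups (58.3 to 71.0 and 61.3 to 74.4 CPM). Its neighbour Cryab, the small heat shock protein that protects desmin filaments, differed by −0.35 ± 0.14. The table's model of Cryab, chromosome 9 at 50745951 to 50756636 on the plus strand, spans that of Hspb2, 50751072 to 50752354 on the minus strand. Since the strand setting of the counting is not stated, reads of the 2 genes may be shared.

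The assembly factors Ndufaf8, for respiratory complex I, and Cmc1, for cytochrome c oxidase, differed by −0.61 ± 0.15 and −0.52 ± 0.12. Imp3, a protein of pre-ribosome processing, differed by −0.48, the arginine methyltransferase Prmt5 by −0.39, the checkpoint silencer Mad2l1bp by −0.56 and the centriole protein Ppp1r35 by −0.73. With Ptrhd1, described below, these make 10, also picked by smallest p. Adult recipients and controls were fully separated in each, against 25.1% of all genes. Besides Spata5, DESeq2 called Hspb2, Imp3, Tcap and Prmt5 (adjusted p from 0.0163 to 0.0246), and the other 5 had no adjusted p there.

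**Figure D2:**
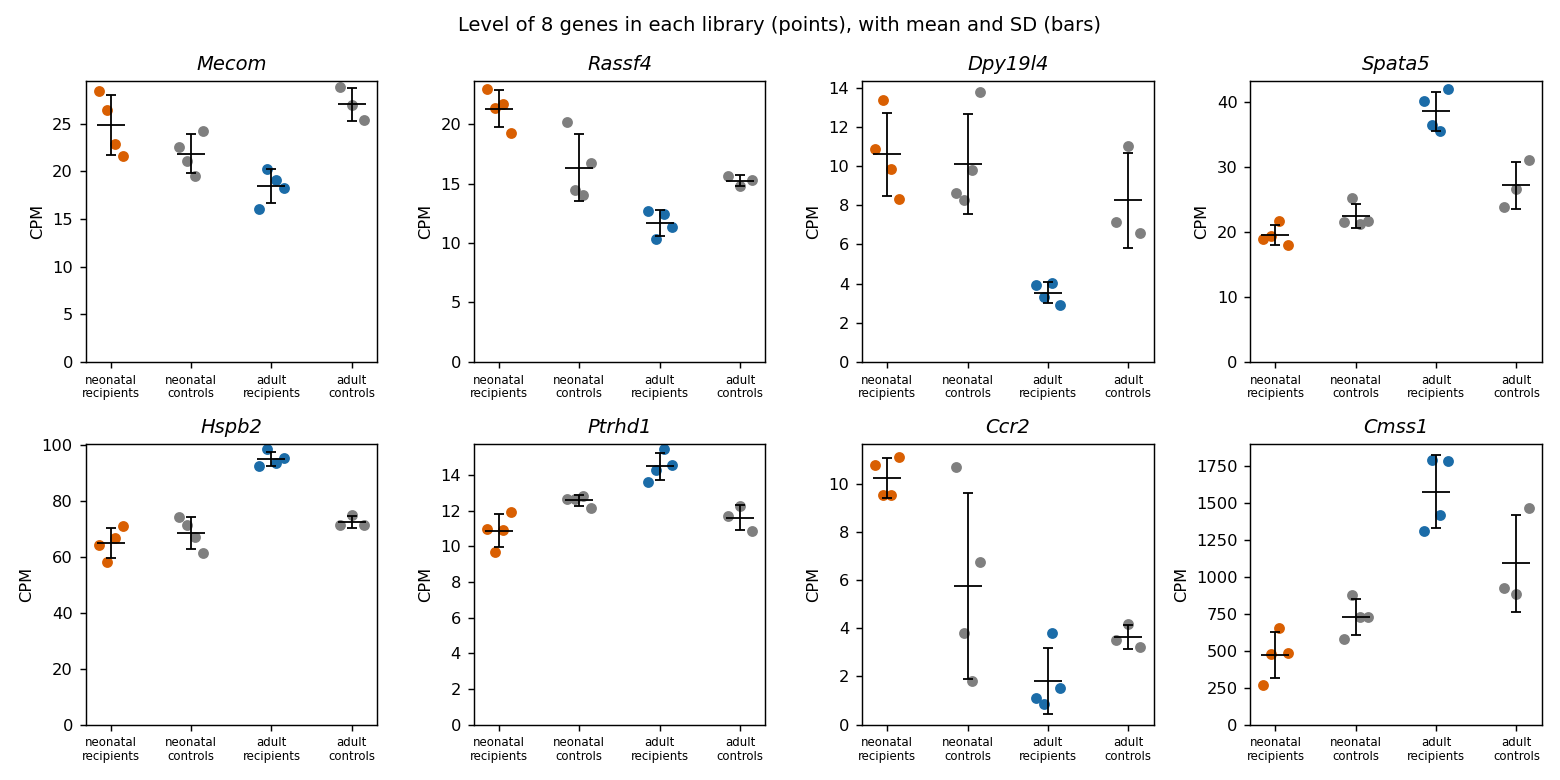
Points are single libraries, on a linear CPM axis that starts at 0, and black bars are the group mean and SD. In Mecom, Rassf4 and Dpy19l4 the adult recipients lie below the adult controls, in Spata5, Hspb2 and Ptrhd1 above them, and the neonatal groups overlap or lie the other way. In Ccr2 neonatal control 6 lies with the recipients, and in Cmss1 adult control 7 does.

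Opposite signs in both ages were common but mostly small. Of all genes tested, 7355 (44.7%) had opposite signs, 3695 higher in neonatal and lower in adult recipients and 3660 the reverse. When an absolute log2 effect of at least 0.2 was asked for in both ages, 851 genes had opposite and 1175 the same sign. With an unadjusted p under 0.05 in each age, these counts were 39 and 53. Among the 2511 genes at an unadjusted p under 0.05 for the difference, 1747 had opposite signs, a split to which the definition of the difference itself contributes.

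Complete separation of recipients from controls in both ages, in opposite directions, was found in 19 genes (0.116%), and in the same direction in 17 (0.103%). In neonates alone 1.36% of genes were separated and in adults, with 1 control fewer, 25.1%. Of the 19, 7 were higher in neonatal and lower in adult recipients and 12 the reverse. Ptrhd1, of the peptidyl-tRNA hydrolase family, had the smallest p of these. Its neonatal recipients measured 11.0, 9.67, 10.9 and 11.9 CPM and neonatal controls 12.7, 12.7, 12.8 and 12.2 CPM. Its adult recipients measured 13.6, 14.3, 15.5 and 14.6 CPM and adult controls 11.7, 12.3 and 10.9 CPM. The effects were −0.21 ± 0.08 and 0.32 ± 0.09, a difference of −0.53 ± 0.13 (edgeR adjusted p = 0.182).

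Acad8, Klhl5 and Ddhd1, also among the 19, were named after their values were seen. Acad8, an enzyme of valine breakdown, had 29.2 to 31.6 CPM in neonatal recipients and 31.7 to 35.4 CPM in their controls, then 44.8 to 47.8 and 36.9 to 40.3 CPM in adults. Klhl5, of the kelch-like family of ubiquitin ligase adaptors, ran the other way, with 28.7 to 32.7 against 25.4 to 27.9 CPM in neonates and 22.9 to 24.8 against 25.3 to 29.0 CPM in adults. So did Ddhd1, a phospholipase, with 21.8 to 26.7 against 19.4 to 21.6 CPM and 14.0 to 15.7 against 17.5 to 17.9 CPM. The gaps between groups were narrow in each, and the differences were −0.37, 0.41 and 0.44.

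Among genes of opposite sign with an unadjusted p under 0.05 and a mean of at least 5 CPM in their highest group, those with the largest effects on both sides and a positive neonatal effect were picked, so their pattern is a description. In the adult groups most of them were near or under 3 CPM, and several reached 5 CPM in neonatal recipients alone. Ccr2, the chemokine receptor that brings monocytes out of the marrow, measured 10.8, 9.55, 9.54 and 11.1 CPM in neonatal recipients and 10.7, 3.80, 1.82 and 6.75 CPM in neonatal controls. It measured 1.09, 0.85, 3.82 and 1.503 CPM in adult recipients and 3.52, 4.19 and 3.21 CPM in adult controls. Neonatal control 6 equalled its recipients, control 8 was lowest, and adult recipient 3 lay among its controls. The effects of 0.84 ± 0.46 and −1.02 ± 0.56 differed by 1.85 ± 0.72 (edgeR adjusted p = 0.256). Without control 8 the difference was 1.54.

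Tlr8, an endosomal sensor of RNA, differed by 1.92 ± 0.56, with 5.36 to 8.98 and 1.72 to 7.59 CPM in neonatal recipients and controls and 0.33 to 0.96 and 1.40 to 1.83 CPM in adults. Hpgds, the prostaglandin D synthase of blood cells, differed by 1.39 ± 0.41, with 11.8 to 21.2 and 5.45 to 15.8 CPM in neonates and 1.55 to 2.30 and 3.13 to 3.64 CPM in adults. The same rule named Shtn1, the leukocyte receptor Cd84, Parvg, an adaptor of integrins, Naip2, a sensor of bacterial proteins, and Tnfrsf11a, the receptor of the osteoclast factor RANKL. The last 4 differed by 1.06 to 1.18. In Tlr8, Hpgds, Cd84, Parvg, Naip2 and Tnfrsf11a, neonatal control 6 lay above the other neonatal controls and control 8 below them.

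The macrophage list as a whole shared the sign of the difference but not the opposite signs. In it 6 of 16 genes had opposite signs in both ages, against 44.7% of all genes. All 16 genes had a positive difference, against 51.1% of all genes, with a median of 0.59 from effects of 0.61 in neonates and 0.07 in adults. An unadjusted p under 0.05 was reached by 3 of 16 in the positive direction, against 8.29% of all genes. The median was 0.34 without neonatal control 8 and 0.90 without neonatal control 6. Without control 6, 13 of 16 were at that level, against 2233 of 16386 genes in either direction. Cx3cr1, the fractalkine receptor of resident macrophages, had the smallest p of the list, at 12.1 to 18.0 and 9.93 to 14.9 CPM in neonatal recipients and controls and 9.23 to 14.2 and 13.6 to 15.9 CPM in adults. Its difference was 0.72 ± 0.22. Mertk, a receptor for dying cells, differed by 0.52 ± 0.21, and by 0.37 without control 8.

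Adgre1, which encodes the macrophage antigen F4/80, had 29.3 to 46.5 CPM in neonatal recipients and 10.2 to 35.5 CPM in neonatal controls, but 5.84 to 9.59 and 8.72 to 9.05 CPM in adults (difference 0.84 ± 0.45). Lyz2, the lysozyme of myeloid cells, differed by 0.91 ± 0.47, with adult effects of 0.01. Irf8, from the interferon gamma list, a transcription factor of monocytes, differed by 0.61 ± 0.27. In these 3 genes most of the difference was the neonatal effect. Monocyte genes had 9 of 11 positive differences, and their median of 0.14 was −0.06 without neonatal control 8 and 0.67 without adult recipient 3.

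Neutrophil genes gave the other balance, with the larger median effect in adults. All 15 differences were positive, at a median of 0.67, with a median effect of 0.20 in neonates and −0.63 in adults. Of the 15, 1 had an unadjusted p under 0.05, against 8.29% of all genes in this direction. In mean log2 deviation adult control 5 (−1.26) lay with adult recipients 1, 2 and 4 (−1.30 to −1.17), and recipient 3 (−0.47) lay between these and controls 6 (−0.12) and 7 (−0.16). The gene at that level was Csf3r, which encodes the receptor of the growth factor G-CSF, with 1.55 to 3.42 CPM in adult recipients against 3.80 to 7.70 CPM in adult controls, and 11.5 to 15.95 against 3.89 to 16.2 CPM in neonates. Its difference was 1.67 ± 0.58 (edgeR adjusted p = 0.22). The median of the list was 0.53 without neonatal control 8, where 13 of 15 were positive, 0.37 without adult control 6 and 1.03 without adult recipient 3. Summed neutrophil markers were 8.36 to 19.1 CPM in adult recipients and 12.7 to 28.2 CPM in adult controls.

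**Figure D3:**
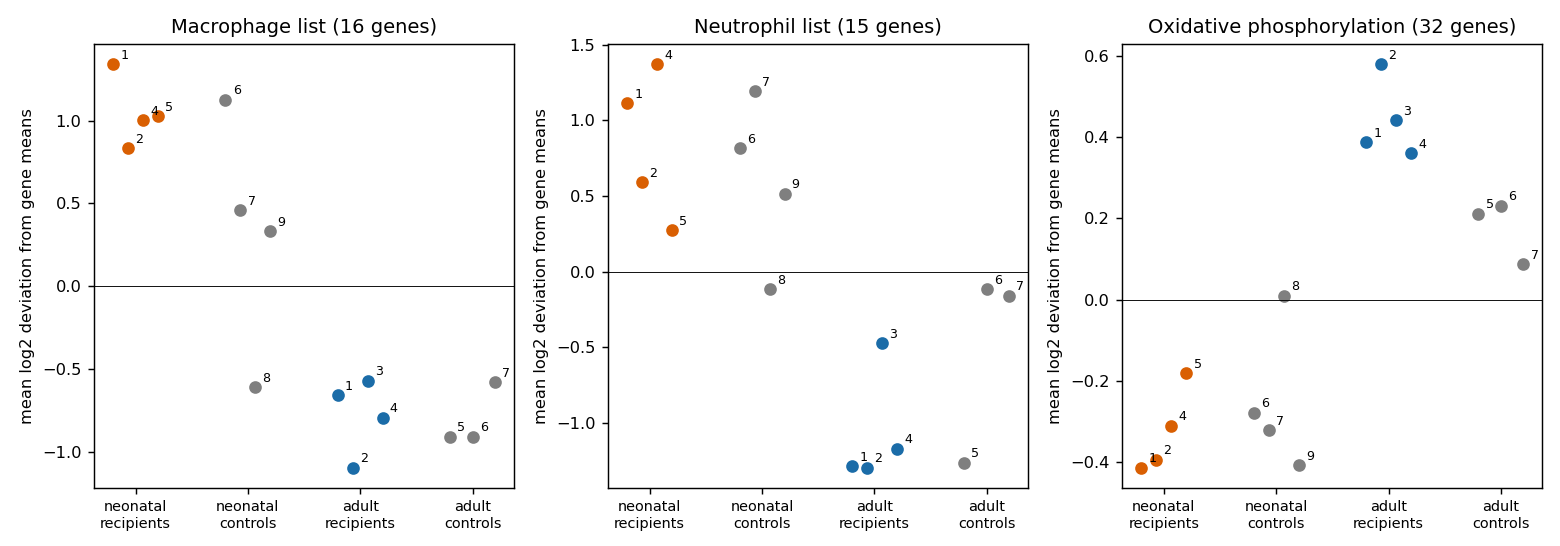
Each point is a library, numbered as in the labels, and the vertical axis is the mean over the list's genes of log2 CPM minus the gene's mean over all libraries. Neonatal control 6 (1.13) lies among the recipients in the macrophage list, and control 8 (−0.61) lies at the adult level. In oxidative phosphorylation control 8 (0.01) is the highest neonatal library and adult recipients (0.36 to 0.58) lie above adult controls (0.09 to 0.23).

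The immediate early list, genes switched on within minutes of a stimulus, had 13 of 16 positive differences. Its median effect was 0.16 in neonates and −0.11 in adults. An unadjusted p under 0.05 was reached by 2 genes, in the positive direction, against 8.29% of all genes. Klf6, a zinc-finger factor of injured tissue, was at 77.0 to 99.9 and 67.6 to 84.6 CPM in neonatal recipients and controls and at 49.7 to 74.4 and 73.2 to 81.8 CPM in adults, a difference of 0.54 ± 0.16. Zfp36, which destabilises cytokine mRNA, differed by 0.49 ± 0.22. The list's median of 0.35 was 0.08 without adult control 7, 0.55 without adult control 6 and 0.21 without neonatal control 8, where 1 gene was at that level.

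In the other direction, lower in neonatal and higher in adult recipients, the rule named, among others, Rn7sk, Cmss1, Cdk8, Scand1, Lrg1, Gphn and Bc1. Cmss1, on chromosome 16 at 57301999 to 57606867, measured 270.0, 476, 652 and 482 CPM in neonatal recipients and 578, 880.2, 727 and 728 CPM in neonatal controls. It measured 1311, 1790, 1421 and 1783 CPM in adult recipients and 925, 881 and 1465 CPM in adult controls. Adult control 7 lay with the recipients and neonatal control 6 with the neonatal recipients. The effects of −0.63 ± 0.24 and 0.53 ± 0.26 differed by −1.16 ± 0.36. Its model overlaps that of Filip1l on the other strand, so its counts are uncertain.

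Cdk8, the kinase of the Mediator complex, and Gphn, the scaffold gephyrin, shared this pattern of libraries. Cdk8 stood at 422 to 802 and 698 to 1048 CPM in neonates and at 1572 to 1958 and 1046 to 1628 CPM in adults, a difference of −1.02 ± 0.27. Gphn stood at 122 to 162 and 150.2 to 242 CPM, then at 280.2 to 327 and 204 to 307 CPM, a difference of −0.83 ± 0.21. In both, neonatal control 7 was the highest neonatal library and adult control 7 the highest adult control. Without adult control 7 the differences were −1.25 and −1.03. Lars2, which charges mitochondrial leucine tRNA, and the kinase Camk1d, both named after their values were seen, differed by −0.65 ± 0.19 and −0.74 ± 0.31. Without adult control 7 Camk1d differed by −1.14. The level of Cdk8 was far above that of Med13l, of the same Mediator module, at 17.9 to 37.9 CPM over all libraries. Whether the reads counted for Cdk8, Gphn, Lars2 and Camk1d come from their own mRNA was not tested.

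Short noncoding RNAs were part of the same group. Rn7sk, the RNA that holds back the elongation factor P-TEFb, had 1.603 to 3.28 CPM in neonatal recipients and 2.96 to 6.27 CPM in neonatal controls, then 3.98 to 10.1 and 1.24 to 7.06 CPM in adults. Its difference of −1.70 ± 0.73 was −2.85 without adult control 7. Bc1, a small RNA of neuronal translation control, differed by −1.57 ± 0.49. Rpph1, the RNA of ribonuclease P, fell under the 5 CPM minimum and was named after its values were seen. It measured 0.24 to 0.48 CPM in neonatal recipients and 0.56 to 1.33 CPM in neonatal controls, which did not overlap, and 1.27 to 3.55 against 0.30 to 1.42 CPM in adults (difference −2.99 ± 0.65). Rn7sk and Rpph1 carry no poly(A) tail, while the libraries were made by oligo-dT capture. Lrg1, a secreted glycoprotein of inflamed vessels and neutrophils, differed by −0.82 ± 0.26, and Scand1, a nuclear protein of the SCAN family, by −0.80 ± 0.33.

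The respiratory chain showed an even pattern. All 32 listed nuclear genes of oxidative phosphorylation, a selection of the chain's subunits, had a negative difference, with a median of −0.36, and 26 of them had an unadjusted p under 0.05, against 6.98% of all genes in this direction. All 32 were of opposite sign, against 44.7% of all genes, slightly lower in neonatal recipients (median −0.07) and higher in adult ones (median 0.27). In adults 6 passed the test as higher in recipients, against 3.53% of all genes. The neonatal sign rested on 1 library: without neonatal control 8 the genes of opposite sign were 11 of 32. The differences stayed negative in all 32 then, at a median of −0.29. At an unadjusted p under 0.05 were 21, against 1364 of 16394 genes in this direction without that library. Within this list Atp5d, the delta subunit of ATP synthase, had the smallest p.

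Atp5d measured 471, 481, 565 and 626 CPM in neonatal recipients and 575, 583, 631 and 494 CPM in neonatal controls. It measured 918, 977, 883 and 974 CPM in adult recipients and 745, 695 and 737 CPM in adult controls. The neonatal groups overlapped and the adult ones did not. The adult effect of 0.37 ± 0.10 passed (edgeR adjusted p = 0.0349), the neonatal one was −0.09 ± 0.09, and the difference was −0.46 ± 0.14. Ndufb10 of complex I differed by −0.43 ± 0.14, Uqcrc1 of complex III by −0.40 ± 0.13 and Cox5b of cytochrome c oxidase by −0.53 ± 0.17. Adult recipients of Cox5b lay at 716 to 856 CPM and controls at 595 to 631 CPM, while its neonatal groups covered 269 to 423 and 353 to 467 CPM.

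The pathways that feed the chain leaned the same way. Of the tricarboxylic acid cycle, 17 of 18 genes had a negative difference, 6 at an unadjusted p under 0.05, and of fatty acid oxidation 20 of 22, with 5. Their medians were −0.20 and −0.24, and −0.13 and −0.14 without neonatal control 8. Mdh2, mitochondrial malate dehydrogenase, differed by −0.38 ± 0.13, and Acads, which opens short-chain fatty acid oxidation, by −0.44 ± 0.13. Glycolysis had 20 of 21 negative, 7 at an unadjusted p under 0.05, with a median of −0.24 and a neonatal median of 0.03. For each of these lists the share of all genes at that level with a negative difference was 6.98%. Pgam2, the muscle phosphoglycerate mutase, had 550 to 651 CPM in adult recipients and 426 to 466 CPM in adult controls, against 320.2 to 397 and 316 to 402 CPM in neonates (difference −0.48 ± 0.13). Aldoa, the muscle aldolase, differed by −0.33 ± 0.12, and in it too the adult rise passed (adjusted p = 0.0237).

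RNA made in the mitochondrion went against the nuclear genes. Of the 13 mitochondrially encoded transcripts 10 had a positive difference, with a median of 0.25. An unadjusted p under 0.05 was reached by 3, in the positive direction, against 8.29% of all genes. Without adult recipient 4 the median was 0.16, with 9 positive and 1 at that level, and without adult recipient 2 it was 0.38. ND4L, a subunit of complex I, measured 494 to 775 and 455 to 778 CPM in neonatal recipients and controls, but 351 to 572 CPM in adult recipients against 815 to 1306 CPM in adult controls. It fell in adults by 1.18 ± 0.23 on the log2 scale (edgeR adjusted p = 0.0181), the neonatal effect was −0.06 ± 0.21, and the difference was 1.12 ± 0.31. ND5, of the same complex, differed by 0.70 ± 0.29. Mitochondrial transcripts made up 12.9% ± 1.26 (SD, n = 4) of counts in neonatal recipients and 13.4% ± 2.13 (SD, n = 4) in neonatal controls. In adults they made up 15.8% ± 2.30 (SD, n = 4) and 20.2% ± 1.74 (SD, n = 3). For this share the difference of effects was 3.90 percentage points (exact two-sided permutation within ages, 2450 relabellings, p = 0.14).

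Sarcomere genes of mature heart muscle had 24 of 30 negative differences, with a median of −0.25. At an unadjusted p under 0.05 were 11 negative genes, against 6.98% of all genes, and 1 positive gene, against 8.29%. Myl3, a ventricular myosin light chain, lay at 7605 to 8385 CPM in adult recipients and 6128 to 6455 CPM in adult controls, against 3949 to 4641 and 3864 to 5204 CPM in neonates (difference −0.40 ± 0.13). Myh6, the adult alpha myosin heavy chain, differed by −0.48 ± 0.19 and Myh7, the fetal beta chain, by −0.45 ± 0.24. Both myosins thus had the same sign. Genes of the fetal or stressed state had 17 of 20 negative, with 4 at an unadjusted p under 0.05, against 6.98% of all genes in this direction. Tnni1, the fetal troponin I, was among the 4 (−0.37 ± 0.13). The list's median of −0.29 was −0.42 without neonatal control 8 and −0.13 without adult recipient 4. Nppa, the atrial natriuretic peptide, was at 3414 CPM in that recipient and 215 to 836 CPM in the other adult recipients, and its difference of −0.85 ± 1.13 was 0.27 without it.

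Genes for making and breaking down protein formed a further negative block. All 34 cytosolic ribosomal proteins had a negative difference (median −0.29, 19 at an unadjusted p under 0.05), as did all 29 mitochondrial ribosomal proteins (median −0.28, 17 genes) and 23 of 24 proteasome subunits (median −0.23, 12 genes). Of all genes 6.98% stood at that level in this direction. The lists' median transcripts had 1124, 2504 and 1566 nucleotides. Among all genes of 1000 to 2000 nucleotides 419 of 2649 stood there, and 236 of 3237 of 2000 to 3000. With the length trend removed, as described below, 7, 10 and 7 members were at that level in either direction, against 1770 of 15480 genes. In adults 17, 8 and 10 members of these lists passed as higher in recipients, against 3.53% of all genes. The neonatal medians were 0.03, −0.03 and 0.03, so most of each median difference was the adult effect. Mrpl28, of the large mitochondrial ribosomal subunit, measured 104 to 113 CPM in adult recipients and 72.2 to 82.4 CPM in adult controls, and 60.3 to 78.4 and 59.3 to 77.4 CPM in neonates (difference −0.48 ± 0.13). Psmb5, the chymotrypsin-like proteasome subunit, differed by −0.36 ± 0.10. Ribosomal protein genes have many near-identical pseudogene copies, so their counts are less certain.

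**Figure D4:**
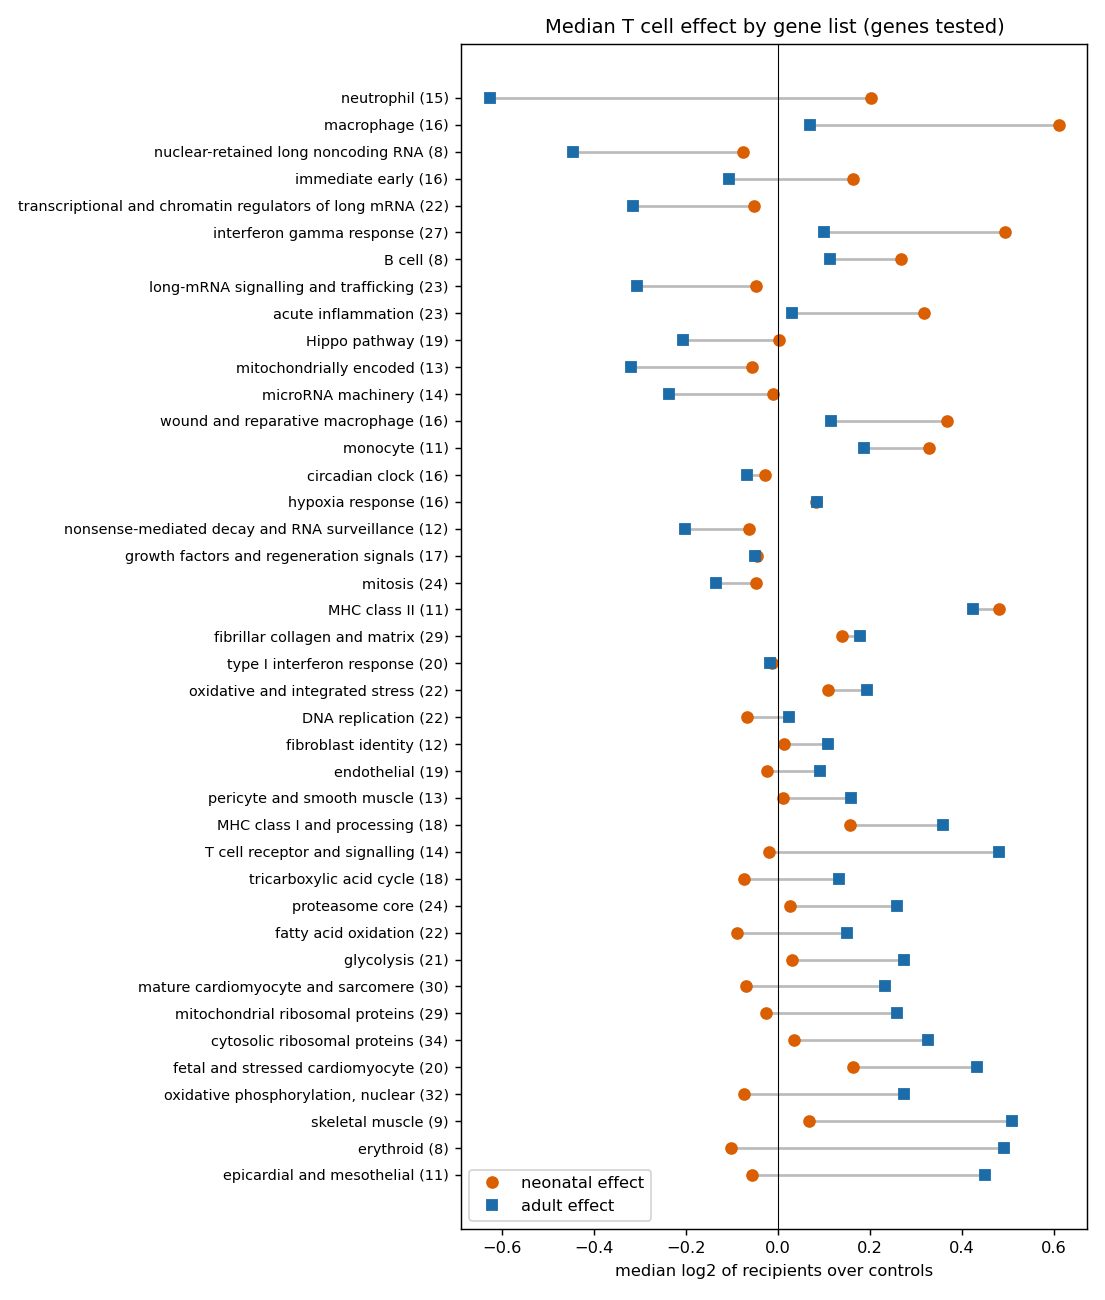
For each gene list shown, the number of tested genes is in brackets. Circles give the median log2 effect of T cells in neonates and squares that in adults, sorted by the difference of effects. The cytotoxic (3 tested genes) and atrial (6) lists are left out. Neutrophil (0.20 and −0.63) and macrophage (0.61 and 0.07) lists stand at the top. Lists of ribosomes and oxidative phosphorylation (−0.07 and 0.27) stand near the bottom, and the epicardial, red cell and skeletal muscle lists are lowest.

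Long messages gave the positive counterpart. All 22 genes of a list of transcription and chromatin regulators with long mRNA had a positive difference (median 0.29, 13 at an unadjusted p under 0.05, against 8.29% of all genes). The neonatal median was −0.05 and the adult one −0.31. Of the 22, 13 passed as lower in adult recipients, against 5.03% of all genes. Med13l, of the Mediator kinase module, measured 17.9 to 22.8 CPM in adult recipients and 32.9 to 37.0 CPM in adult controls, and 26.1 to 37.9 and 30.3 to 37.9 CPM in neonates (difference 0.70 ± 0.16). Ash1l, a histone methyltransferase, differed by 0.57 ± 0.16. Signalling and trafficking genes with long mRNA had 22 of 23 positive, 10 at an unadjusted p under 0.05, with a median of 0.27. Both lists were put together by transcript length, with the length trend of these data already known, so their direction is a description and no support for it. Of all 687 genes of 8000 to 12000 nucleotides 565 had a positive difference, 209 of them at an unadjusted p under 0.05.

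The Hippo pathway, a kinase cascade that restrains heart growth, had 18 of 19 positive differences, with a median of 0.26 and 6 at an unadjusted p under 0.05, against 8.29% of all genes. In adults 5 of the 19 passed as lower in recipients, against 5.03% of all genes. Mob1a, a cofactor of the LATS kinases, was at 33.4 to 40.2 and 40.7 to 50.7 CPM in adult recipients and controls and at 49.6 to 61.9 and 45.6 to 54.3 CPM in neonates, a difference of 0.49 ± 0.14. Lats2, the kinase itself, differed by 0.49 ± 0.15, and its adult fall passed (adjusted p = 0.0206). Of the microRNA machinery 11 of 14 were positive. At an unadjusted p under 0.05 were 4 positive genes and 1 negative one, against 8.29% and 6.98% of all genes. Ago2, the slicing Argonaute, had 13.8 to 20.9 CPM in adult recipients and 26.7 to 43.2 CPM in adult controls, with wide and overlapping neonatal groups (42.3 to 83.1 and 46.2 to 76.8 CPM), a difference of 1.04 ± 0.34.

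Across genes the difference followed transcript length. For the 15480 genes with a transcript length (94.2% of those tested) the Spearman correlation of the difference with length was 0.407, from −0.45 in adults and −0.03 in neonates. Genes at an unadjusted p under 0.05 had a median length of 5536 nucleotides when positive and 1659 when negative, against 3261 overall. The median difference was −0.27 among the 783 genes of 500 to 1000 nucleotides and 0.26 among the 171 of 12000 or more. GC content ran alongside, with correlations of −0.34, 0.35 and −0.02.

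Library by library, only the adult groups were separated in how levels followed length. The correlation of a library's deviations with length was −0.34 to −0.21 in adult recipients and 0.03 to 0.13 in adult controls, which did not overlap, and −0.07 to 0.37 and 0.05 to 0.33 in neonatal recipients and controls. In adults the exact two-sided permutation p was 0.0286, the smallest that 4 against 3 libraries allow, or 0.114 adjusted over the 4 library measures, and in neonates it was 0.857. The effects differed by 0.32 (exact permutation within ages, p = 0.0739, or 0.279 adjusted over the 4 library measures compared). What set this trend was not tested.

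With the trend of each library on length removed, the correlation of the difference with length was 0.08, and edgeR called 0 genes for the difference and 0 for the adult effect, where 1406 had passed. DESeq2 still called 39 and 922. Adult effects kept an SD of 0.317, against 0.354 before, and a median absolute size of 0.15, against 0.19. The list medians moved unequally. They went from 0.29 to 0.08 for the long chromatin regulators, from 0.27 to 0.02 for long signalling genes, from 0.26 to 0.13 for Hippo and from 0.24 to 0.06 for the microRNA machinery. Oxidative phosphorylation went from −0.36 to −0.29 with all 32 still negative. Of these 14 had an unadjusted p under 0.05, against 1156 of all 15480 genes in this direction. Cytosolic ribosomal proteins went from −0.29 to −0.19, and sarcomere genes were at −0.26. The macrophage list, whose median transcript is short at 1478.5 nucleotides, was at 0.62 and the neutrophil list at 0.78. Spata5 (−0.75), Ptrhd1 (−0.61) and Mecom (0.60) were among the genes with the smallest p afterwards.

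**Figure D5:**
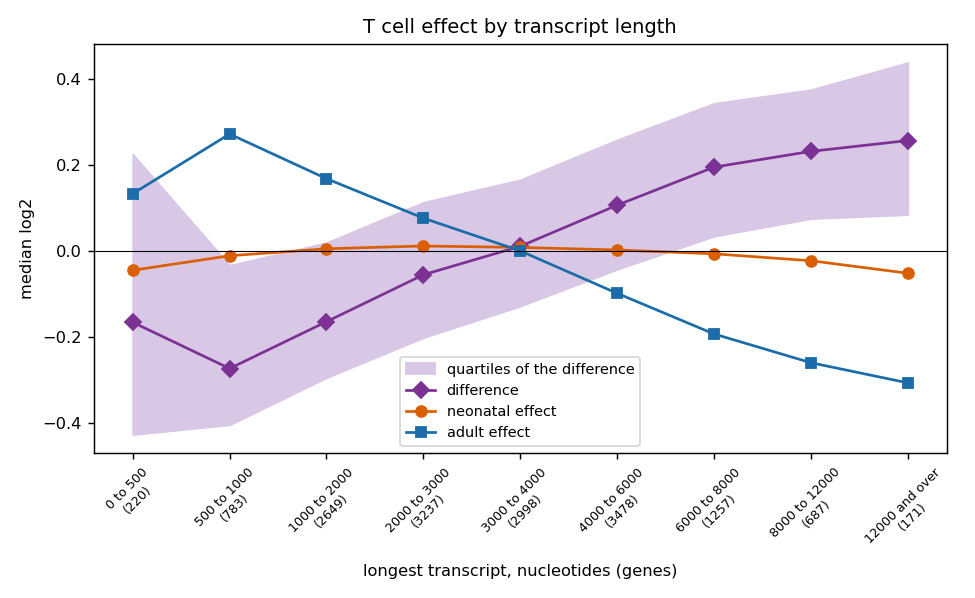
Tested genes are binned by the length of their longest transcript, with the number of genes in brackets. Lines give the median log2 effect in neonates (circles), in adults (squares) and of the difference (diamonds), and the band spans the quartiles of the difference. The neonatal line stays between −0.05 and 0.01, while the adult line runs from 0.27 at 500 to 1000 nucleotides to −0.31 in the longest bin, and the difference mirrors it.

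Genes of the T cells themselves were scarce. Summed CD3 chains were 0.73 ± 0.38 (SD, n = 4) and 0.48 ± 0.31 (SD, n = 4) CPM in neonatal recipients and controls and 1.39 ± 0.38 (SD, n = 4) and 0.72 ± 0.22 (SD, n = 3) CPM in adults. The difference of effects was −0.42 CPM (exact two-sided permutation p = 0.345). Cd3e, Cd8a and Ifng were below the limit for testing. Cd4, the coreceptor of helper T cells that mouse myeloid cells also carry at low level, was at 0.63 to 1.17 and 0.54 to 1.10 CPM in neonates and at 1.05 to 1.93 and 0.65 to 0.85 CPM in adults (difference −1.02 ± 0.42). Of 14 tested T cell genes 10 had a negative difference, 1 of them at an unadjusted p under 0.05, against 6.98% of all genes in this direction. The list's median of −0.18 was −0.37 without neonatal control 8 and −0.30 without adult recipient 4.

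Few interferon and antigen presentation genes reached an unadjusted p under 0.05 for the difference. The interferon gamma list had a median effect of 0.49 in neonates and 0.10 in adults and 19 of 27 positive differences. Of the 27, 1 was at an unadjusted p under 0.05, against 8.29% of all genes in the positive direction. Its median difference of 0.28 ran from −0.09 without neonatal recipient 4 to 0.59 without adult recipient 3, and was 0.18 without neonatal control 8. Cxcl9, a chemokine for T cells, differed by 0.82 ± 1.19, with 4.30 CPM in neonatal recipient 4 and 0.30 to 1.87 CPM in the other neonatal recipients. All 11 MHC class II genes had positive effects at both ages, with medians of 0.48 and 0.42, and their median difference was 0.04 (−0.28 without neonatal control 8, 0.22 without neonatal control 6). For Cd74, the invariant chain of that complex, it was −0.35 ± 0.44, and −0.55 without neonatal control 8. MHC class I genes had 13 of 18 negative differences, 2 of them at an unadjusted p under 0.05, against 6.98% of all genes in this direction. The list's median of −0.17 was 0.11 without adult recipient 3, −0.31 without neonatal control 8 and −0.26 without adult recipient 4. It includes Psme1, an activator of the immunoproteasome, with a difference of −0.43 ± 0.12, which DESeq2 called (adjusted p = 0.0389) and edgeR did not. Type I interferon genes had 10 differences on each side, and their median ran from −0.15 without neonatal recipient 5 to 0.22 without neonatal control 6 (−0.15 with 5 of 20 positive without neonatal control 8).

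Matrix and cell division genes had median differences near 0. For fibrillar collagens and matrix genes it was 0.01 (0.16 without adult recipient 4, −0.19 without neonatal control 8 and −0.27 without adult control 7), with 15 of 29 positive, 7 without neonatal control 8, and 0 at an unadjusted p under 0.05. Col1a1 differed by −0.13 ± 0.47 and Postn, a matrix protein of activated fibroblasts, by 0.10 ± 0.19, and both changed sign when single libraries were left out. Mitosis genes had a median of 0.06 (0.10 without neonatal control 8 and 0.14 without adult recipient 4) and DNA replication genes of −0.08 (−0.04 without neonatal control 8), again with 0 at that level. Mki67, a marker of cycling cells, was at 137 to 146 and 137 to 172 CPM in neonates and at 80.3 to 99.9 and 107 to 123 CPM in adults, a difference of 0.22 ± 0.12. With the length trend removed it was −0.01.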

How the data were processed

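Per the labels' protocols, ventricles were stored in RNAlater and stranded libraries were made by oligo-dT capture. Per the submitters' processing notes, bcl2fastq 2.20.0.422, cutadapt 2.5, STAR 2.7.2b, featureCounts 1.6.4 and DESeq2 1.24.0 were used with GRCm38.p6. The authors deposited 1 table of unscaled expected counts per gene. Of its non-zero values 61.1% are whole. The strand setting and the rule for fractions are not given in the sources used here.

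Counts were rounded, filtered with filterByExpr of edgeR 4.0.16 (minimum count 10, total 15), scaled by TMM and fitted in 1 robust quasi-likelihood model with 1 coefficient per group (R 4.3.3). P-values were two-sided and Benjamini-Hochberg adjusted over all genes, with a threshold of 0.05. A standard error is the absolute log2 value over the square root of F. CPM of genes are scaled by TMM, and marker sums, CD3 sums and detection limits refer to unscaled library totals. Lists were described by counts and medians. Library measures were compared by exact permutation within ages. Length and GC were read from each gene's longest GENCODE M21 transcript, and trends were removed by a spline offset of 5 degrees of freedom. Alternatives included DESeq2 1.42.0, limma 3.58.1 (voom), other scalings and filters, and leaving out each library. The fit was tested on simulated data.

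Named genes were the 10 each way with the smallest p, since none passed, and the 8 each way of opposite sign with the largest smaller effect, all at 5 CPM or more. To these were added 2 members of each of 44 lists by smallest p, and 19 fixed genes. Left out were antigen receptor segments, ribosomal protein genes, pseudogenes, predicted genes and 6 sex-linked genes, and not all named genes are printed. The members and lists were chosen with earlier results of these data known. Floors cover counting error only.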

Additional observations from a re-analysis of the deposited data

Results flagged for a closer look

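In 252 groups of 4 libraries, covering the printed genes, 3 lists and the correlation with length, 10 held a library that stood apart by Dixon's test. Chance alone flags about 5% of such groups. In neonates these were Pikfyve at 15.7 CPM in recipient 5 (others 18.8 to 19.3), Lyz2 at 338 CPM in recipient 1 (203 to 215), Spata5 at 25.2 CPM in control 7 (21.3 to 21.7), Acad8 at 35.4 CPM in control 8 (31.7 to 32.3) and Med13l at 37.9 CPM in control 9 (30.3 to 31.3).

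In adult recipients these were Gphn at 280.2 CPM in library 1 (others 319.9 to 327), Ndufb10 at 626 CPM in library 2 (519.5 to 534), Psmb5 at 88.5 CPM in library 3 (98.4 to 99.7) and Myh7 at 2766 CPM in library 4 (1943 to 2046). The neutrophil list stood apart in adult recipient 3, with a mean log2 deviation of −0.47 against −1.30 to −1.17 in the other 3.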

How the results depend on the processing

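The difference of effects had 0 edgeR calls under every scaling and filter, with limma voom, with the length, the GC or both trends removed, and without each single library. It had 174 with DESeq2 (145 of opposite sign), 39 with DESeq2 and the length trend removed (33), 1 with voom quality weights (1) and 17 with the replicate block (11). Leaving out a library in DESeq2 gave 6 to 868 calls, 5 to 802 of opposite sign. Same-numbered libraries of both ages correlated at −0.07 to 0.31, over 0.1 in 2 of 5 pairs, so the numbers were not taken to pair them. The block left 3 residual degrees of freedom against 11. The correlation of the difference with length was 0.22 with no filter on low counts, 0.082 with the length trend removed, 0.0834 with both trends removed and 0.0825 with DESeq2 and length removed. The 1406 adult calls became 2324 with DESeq2, 3433 with voom quality weights, 887 with GC removed, 207 with length and GC removed, 0 with length removed, 922 with DESeq2 and length removed, 3 with the replicate block, 404 without both neonatal control 8 and adult recipient 4, and 0 to 1811 without single libraries. The 0 neonatal calls became 0 to 9 without single libraries. Alternatives with the length and GC trends together, DESeq2 with length removed or single libraries left out, and both doubted libraries left out were chosen after seeing the data. The causes were not tested.

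Postn was −0.029 with length, −0.13 with GC, −0.19 with both, −0.029 with DESeq2 and length removed, −0.10 with the block and −0.038 to 0.25 without single libraries. Mki67 was −0.0072 with length removed, −0.012 with both removed and −0.0076 with DESeq2 and length removed. Without single libraries, Cxcl9 ran from −0.24 to 1.41, Nppa from −1.60 to 0.27 and Col1a1 from −0.53 to 0.11.

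With a median standard error of 0.169, differences near the median size of 0.20 were not detectable one gene at a time.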

Other observations

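Red cell genes had a negative difference in all 8 tested members, with a median effect of −0.10 in neonates and 0.49 in adults, and 0 at an unadjusted p under 0.05. Hba-a1, an alpha globin with a near-identical copy, measured 429 to 716 and 288 to 860 CPM in neonatal recipients and controls and 1361 to 1843 and 999 to 1138 CPM in adults. Skeletal muscle genes had 8 of 9 negative differences (median −0.53, 2 at an unadjusted p under 0.05, against 6.98% of all genes in this direction). Epicardial and mesothelial genes had a median difference of −0.62, which ran from −1.10 without adult control 7 to 0.13 without adult recipient 4 when single libraries were left out. Endothelial genes had 15 of 19 negative differences, with a median of −0.12. At an unadjusted p under 0.05 were 2 of the 19, against the same 6.98% of all genes.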
